A study of Drosophila melanogaster with 4 samples.

Results

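The chaperonin CCT, also called TRiC, is the ring-shaped folding machine of the eukaryotic cytosol, and its subunits were followed here in cold-shocked male fruit flies (Drosophila melanogaster). The members are the array spots whose single gene symbol in the platform annotation is a subunit from CCT1 to CCT8. Of 8 such symbols, 7 were present on the 12k cDNA array design (CCT1, CCT2, CCT3, CCT4, CCT5, CCT7 and CCT8), on 14 of its 27648 spots and among 6793 named genes. The pilot 7k design carried 5 of them (CCT1, CCT2, CCT4, CCT5 and CCT8), on 12 of 16896 spots and among 2377 named genes. CCT6 was not analysed here. The gene identifiers of all 7 were found in the RefSeq table, whose symbols are used here.

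The flies were whole adult males of the strain dp cn bw cl, aged 6 to 7 days after eclosion, in every group. Cold-shocked males spent 2 h at 0 ± 0.5 °C and then recovered for 30 min at 25 °C, and untreated males of the same rearing remained at 25 °C. On 3 arrays of the 12k design, cold-shocked males were set against untreated males of an independent biological pair, with cold-shocked RNA in Cy5 and untreated RNA in Cy3, and 1 pilot array of the 7k design carried the reverse dyes. The values were the authors' log ratio of the channels at each spot, read here as log2. Positive ratios on the 12k design likely mean higher levels in cold-shocked flies, as the dye, channel and treatment conventions all give that direction, but the labels do not state it. All 3 carry the same dye orientation, so dye and cold cannot be told apart on them.

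CCT consists of paired rings stacked back to back, each built from the full set of related but distinct subunits. Unfolded proteins enter the central cavity, which closes and opens as the subunits bind and hydrolyse ATP. Actin and tubulin are its best known clients, handed over in part by the smaller chaperone prefoldin, and a number of WD-repeat proteins also depend on it. In the onion maggot, Delia antiqua, CCT transcripts have been linked to cold hardiness. The comparison below asks whether transcript levels of the subunits in fruit flies differed shortly after a cold shock.

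No CCT subunit passed the test for a difference between cold-shocked and untreated males. CCT2 and CCT5 had ratios above 0 on all 3 arrays, CCT8 had ratios below 0 on all 3, and CCT1, CCT3, CCT4 and CCT7 had mixed signs. The mean log2 ratios ran from 0.36 for CCT2 down to −0.57 for CCT3. With limma, 0 of the 7 subunits reached an adjusted p of 0.05, and 0 were under an unadjusted p of 0.05. Over all 19325 features tested, 0 (0%) passed after adjustment and 924 (4.78%) were under the unadjusted threshold, as were 237 (3.49%) of the named genes. In this fit the smallest limma adjusted p of any feature was 0.853. Genes that share this value below are therefore not told apart by it.

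Each subunit was represented on the 12k design by 1 printed pair of neighbouring spots, so every array gave 2 readings of it. The 2 spots share a labelled RNA sample and are not biological replicates. They were averaged within an array, and n below counts arrays. Neighbouring, nearest and surrounding spots, and local medians, are meant by the order of the deposited values, as positions on the slide were not used.

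CCT2, the beta subunit, had the highest mean ratio, though CCT5 was higher on array 1. Its log2 ratio was 0.066 on array 1, 0.60 on array 2 and 0.41 on array 3, a mean of 0.36 ± 0.27 (SD, n = 3) or 1.28-fold higher in cold-shocked flies if the likely direction holds. All 6 spot readings lay above 0, which held for no other subunit, and 538 (8.81%) of the 6106 genes with 2 spots had all 6 readings on the same side. On array 1 its spots read 0.075 and 0.058. On array 2 they read 0.47 and 0.73, and on array 3 0.24 and 0.59, so both spots of every pair pointed the same way. The limma adjusted p was 0.855, with a 95% interval for the mean of −0.19 to 0.91.

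CCT5, the epsilon subunit, came next. Its log2 ratio was 0.35 on array 1, 0.061 on array 2 and 0.16 on array 3, a mean of 0.19 ± 0.15 (SD, n = 3). The 2 spots differed by 0.049, 0.067 and 0.62 on arrays 1 to 3, and 1 spot on array 3 was below 0, at −0.15. The 95% interval of its mean was −0.34 to 0.72, and the limma adjusted p was 0.897. Ratios above 0 on all 3 arrays were found for 2 of the 7 subunits and for 852 (12.5%) of the named genes.

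CCT8, the theta subunit, was the only member with ratios below 0 on all 3 arrays. It had a log2 ratio of −0.28 on array 1, −0.66 on array 2 and −0.19 on array 3, a mean of −0.38 ± 0.25 (SD, n = 3) or 1.30-fold lower in cold-shocked flies if the likely direction holds. The array 2 value joined a spot at −1.49 and a spot at 0.17, a gap of 1.66 that 99.5% of genes with 2 spots did not reach on that array. With the second spot of each pair alone, the mean of CCT8 was −0.10, and with the first spot alone −0.65. The limma adjusted p was 0.853, with a 95% interval of −0.92 to 0.17. Among named genes, 1145 (16.9%) lay below 0 on all 3 arrays.

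CCT3, the gamma subunit, had the lowest mean and readings that did not agree between arrays. Its log2 ratio was −0.67 on array 1, 0.20 on array 2 and −1.23 on array 3, a mean of −0.57 ± 0.72 (SD, n = 3) or 1.48-fold lower. The low value on array 3 came from 1 spot at −2.37, while its neighbour in the pair read −0.095. On array 1 the spots read −0.29 and −1.04, and on array 2 they read 0.23 and 0.16. Without array 3 the mean was −0.23, and without array 2 it was −0.95.

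The surroundings of the CCT3 pair were low on array 1 and not on array 3. Of the 20 nearest spots on array 1, 3 read below −2, the lowest at −7.16, and their median was −0.64, close to the CCT3 value itself. Low readings on array 1 were not limited to this site. The 20 spots around the CCT5 pair included 2 below −2, the lowest at −6.54, though CCT5 itself read 0.35. The medians around CCT4 and CCT2 on that array were −0.43 and −0.42. Around CCT5, CCT7, CCT8 and CCT1 they were −0.16, −0.15, −0.25 and 0.016, beside −0.13 for all spots on array 1. For every subunit but CCT3 and CCT5, 0 of the 20 nearest spots on array 1 read below −2. On array 3, where CCT3 read lowest, the median of the 20 nearest spots was 0.30 and 0 of them read below −2. Subtraction of the median of the 5 spots on either side changed the CCT3 mean to −0.23, that of 10 spots to −0.42 and that of 50 spots to −0.55. The limma adjusted p was 0.853 for the values as deposited, with a 95% interval of −1.30 to 0.17.

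CCT1, the alpha subunit, had the widest spread between arrays. Its log2 ratio was −1.34 on array 1, −0.19 on array 2 and 0.27 on array 3, a mean of −0.42 ± 0.83 (SD, n = 3). On array 1 the spots read −0.32 and −2.37, a gap of 2.05, and the 20 spots around the pair had a median of 0.016. Without array 1 the mean of CCT1 was 0.038. The limma adjusted p was 0.866, and the 95% interval ran from −1.22 to 0.37.

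The remaining subunits had the means nearest to the middle of all named genes, whose median mean log2 ratio was −0.048. CCT4, the delta subunit, stood at −0.35, −0.10 and 0.070 on arrays 1 to 3, a mean of −0.13 ± 0.21 (SD, n = 3). Its spots on array 3 lay on opposite sides of 0, at −0.59 and 0.73. CCT7, the eta subunit, stood at −0.44, 0.28 and −0.39, a mean of −0.19 ± 0.40 (SD, n = 3). Its limma adjusted p was 0.908 and that of CCT4 was 0.928. Subtraction of the median of the 5 spots on either side moved CCT4 to 0.092 and CCT7 to −0.067. Without array 1 the mean of CCT4 was −0.015 and that of CCT7 −0.056, and without array 2 that of CCT7 was −0.42. Without array 3 they were −0.22 and −0.083.

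**Figure D1:**
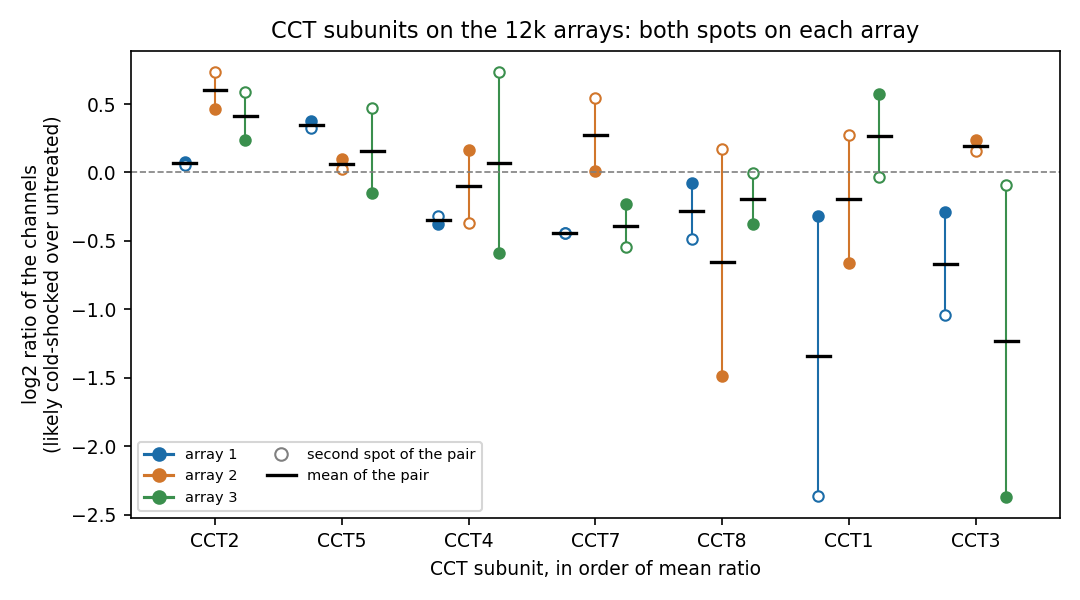
Log2 ratio of both spots of each CCT subunit on each 12k array, with the first spot filled, the second spot open and their mean as a black bar. The lowest readings, of CCT1 on array 1 and CCT3 on array 3, each belong to a single spot at −2.37 whose pair spot read −0.32 and −0.095.

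The 2 spots of a pair disagreed widely in a few readings and closely matched in others. A gap of over 2 in log2 on at least 1 array occurred for 2 of the 7 subunits, CCT1 and CCT3, and for 197 (3.23%) of the 6106 genes with 2 spots. A gap of over 1 occurred in 4 of 21 pair readings of CCT subunits, or 19.0%, against 9.19% over all genes with 2 spots. The median gap on array 1 was 0.062 for CCT subunits, below the 0.32 for all genes with 2 spots. It was 0.53 against 0.34 on array 2 and 0.61 against 0.39 on array 3. In the CCT readings, the SD between spots of a pair was 0.64, the SD between arrays within a subunit was 0.47, and the SD between the 7 subunit means was 0.34. They are SDs of single spots, of pair means and of means over arrays, so their sizes are not directly comparable. Of the 42 spot readings, 20 were above 0 and 22 below, and both spots had the same sign in 15 of 21 pairs.

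Read by array, the subunits did not shift together in a fixed direction. On array 1 their median log2 ratio was −0.35, with 2 subunits above 0 and 5 below, against a median of −0.12 for all named genes on that array. On array 2 the CCT median was 0.061, with 4 above and 3 below, against 0.016 for named genes. On array 3 it was 0.070, again with 4 above and 3 below, against 0.015. Over the 3 arrays the median of the 7 subunit means was −0.19, and without array 1 it was −0.015.

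The order of the mean ratios was CCT2, CCT5, CCT4, CCT7, CCT8, CCT1 and CCT3, from high to low. No neighbours in this order differed by more than the SD of their difference between arrays. For CCT5 minus CCT4 the difference was 0.32 ± 0.33 (SD, n = 3), and it was above 0 on 3 of 3 arrays. For CCT2 minus CCT5 it was 0.17 ± 0.42 and for CCT1 minus CCT3 0.15 ± 1.18 (SD, n = 3 each). The ends of the order, CCT2 minus CCT3, differed by 0.73, 0.40 and 1.64 on arrays 1 to 3, a mean of 0.93 ± 0.64 (SD, n = 3). That pair was picked as the highest and the lowest, so no test is given for it.

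Against all named genes, CCT2 was higher in its mean ratio than 93.8% of them, and CCT3 was higher than 5.28%. The 5th and 95th percentiles of named genes were −0.59 and 0.39, and all 7 subunit means lay between them. None of the 7 passed a fold of 1.5 in its mean, a mark reached upward by 1.41% and downward by 5.01% of named genes. An exact sign-flip test over the 3 arrays, two-sided, cannot give a p below 0.25, and it gave 0.25 for CCT2, CCT5 and CCT8. The 95% intervals admit changes in either direction for every subunit. For CCT5, which had the smallest spread between arrays, they extended from 1.26-fold lower to 1.64-fold higher, and for CCT3 from 2.47-fold lower to 1.12-fold higher.

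**Figure D2:**
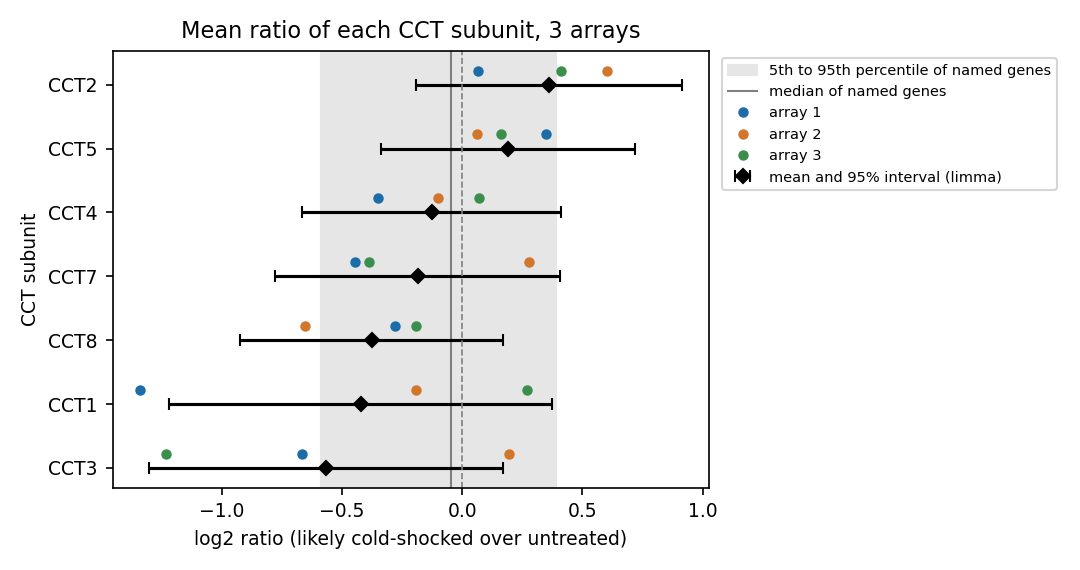
Mean log2 ratio of each CCT subunit over 3 arrays with its limma 95% interval (black), the 3 array values (coloured) and the 5th to 95th percentile of 6793 named genes (grey band). Every interval includes 0, and the means range from 0.36 for CCT2 to −0.57 for CCT3.

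The 5 named genes with array values most like the mean CCT profile of −0.38, 0.027 and −0.13 were CD98hc, CG6006, Hmt-1, CG7453 and snz. The root mean square difference over the 3 arrays ran from 0.012 for CD98hc to 0.034 for snz. CD98hc, the heavy chain of an amino acid transporter, stood at −0.36, 0.037 and −0.12. With 3 points a profile, such likeness is a description of these arrays.

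The partners and clients of CCT and other chaperones, listed with earlier results of these data known, gave 0 genes past limma's adjusted test in either direction. Prefoldin and phosducin-like genes had 5 of 8 listed members on the 12k design and a median mean log2 ratio of −0.044. Pfdn6, a prefoldin subunit, was above 0 on all 3 arrays, with 0.18, 0.15 and 0.74 and a mean of 0.36 ± 0.33 (SD, n = 3). Without array 3 the mean of Pfdn6 was 0.16. Subtraction of local medians of 50 spots on either side gave 0.16, and that of 5 spots gave 0.045. Pfdn5 had a mean of 0.23, Pfdn1 of −0.090 and Pfdn4 of −0.044. The phosducin-like gene viaf had a mean of −0.11, and viaf and Pfdn4 were below 0 on all 3 arrays, though Pfdn4 stood at 0.21 with local medians of 50 spots on either side subtracted.

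Actin and tubulin genes had means on both sides of 0. Of 6 actin genes 3 were measured, all of muscle and all with mixed signs, with means of 0.18 for Act87E, 0.071 for Act79B and −0.15 for Act88F. Of 10 tubulin genes 4 were measured, with a median mean of 0.033. The highest was betaTub60D at 0.36 ± 0.51 (SD, n = 3), set by 0.94 on array 3. alphaTub85E had a mean of 0.096 and betaTub85D, the beta-tubulin of the male germ line, a mean of −0.12, which became 0.021 with the same subtraction.

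Lower means were found among the tubulin cofactors, which take tubulin on from CCT and assemble the dimer. All 5 listed genes were measured, with a median mean of −0.11. Tbcc stood at −1.05, −0.58 and −0.28 on arrays 1 to 3, a mean of −0.64 ± 0.39 (SD, n = 3). It was the only 1 of the 5 below 0 on all 3 arrays and the only 1 under an unadjusted p of 0.05, with a limma p of 0.038 and an adjusted p of 0.853. With local medians of 50 spots on either side subtracted, the mean of Tbcc was −0.37. With the first spot of each pair alone it was −1.07, and with the second spot alone −0.21. Tbce stood at 0.19 and −0.044 on arrays 1 and 2 and far lower on array 3, for a mean of −0.62, and without array 3 that mean was 0.074. Tbcd, Tbca and Tbcb had means of −0.11, 0.0054 and 0.10.

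Among genes for WD-repeat proteins, a class that includes CCT clients, 3 of 5 listed were measured. Gbeta5, a G protein beta subunit, stood at −1.17, −0.52 and −0.80 on arrays 1 to 3, a mean of −0.83 ± 0.32 (SD, n = 3). The 2 spots of Gbeta5 differed by at most 0.16 on any array, a closer match than for any CCT subunit. The largest gaps of the subunits ran from 0.35 for CCT2 to 2.27 for CCT3. The limma p of Gbeta5 was 0.011 and its adjusted p 0.853, the smallest of any feature, so it did not pass. The activators of the anaphase-promoting complex, fzr and fzy, had means of 0.17 and 0.086, with mixed signs.

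The mitochondrial chaperonins, a separate family that folds imported proteins, had 4 of 6 listed genes on the 12k design and a median mean of 0.068. CG11267, the co-chaperonin Hsp10, stood at 0.12, 0.46 and 0.32, a mean of 0.30 ± 0.17 (SD, n = 3), and was above 0 on all 3 arrays. Hsp60C had a mean of 0.28, CG9920 of −0.15 and Hsp60D of −0.37, the last set by −1.27 on array 1. In the cytosolic Hsp70 and Hsp90 machinery, 8 of 14 listed genes were measured, with a median mean of −0.089. CG1416, related to the Hsp90 activator Aha1, was above 0 on all 3 arrays, with a mean of 0.48 ± 0.41 (SD, n = 3). With the first spot of each pair alone the mean of CG1416 was 0.90, and with the second spot alone 0.066. The Hsp90 co-chaperone gene p23 had a mean of −0.44 ± 0.45 (SD, n = 3). The Hsp40 gene Droj2 had a mean of 0.25. Over these 7 lists, 2 of 32 measured genes (6.25%) were under an unadjusted p of 0.05, Tbcc and Gbeta5, beside 3.49% of named genes and 4.78% of all features.

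**Figure D3:**
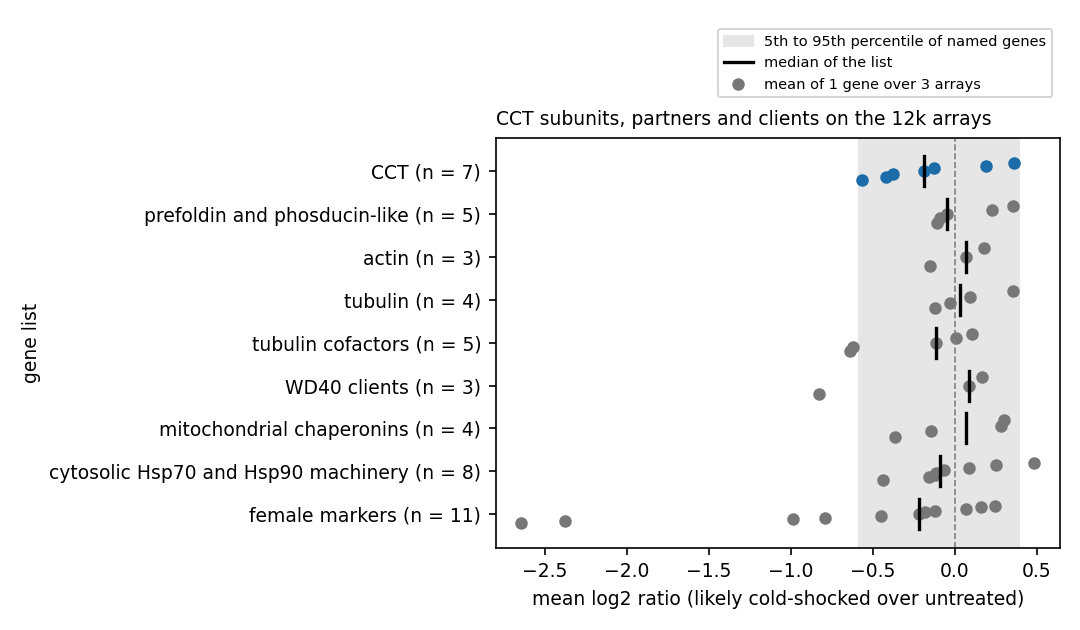
Mean log2 ratio over 3 arrays of each measured gene (points) and the median (bar) of the CCT subunits, 7 lists of partners, clients and other chaperones, and the female markers, with the 5th to 95th percentile of named genes as a grey band. The CCT median of −0.19 lies below that of all named genes, −0.048, and the female markers reach −2.64.

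Female markers, included since a mis-sexed fly could enter a whole-animal sample, had low ratios on the same arrays. Of 26 listed genes 11 were measured, with 5 below 0 on all 3 arrays, 0 above 0 on all 3 and 6 of mixed sign, beside 16.9% below and 12.5% above among named genes. Their median log2 ratio was −0.59, −0.28 and −0.38 on arrays 1 to 3, beside CCT medians of −0.35, 0.061 and 0.070. The yolk protein gene Yp1 stood at −4.22, −2.32 and −1.40, the oocyte thioredoxin gene dhd at −2.60, −2.78 and −1.75, and Yp3 at −1.78, −0.80 and −0.38, the 3 members farthest from 0 in the mean. On the other side fs(1)N, swa and grk had means of 0.25, 0.16 and 0.067. The part of female tissue in the CCT ratios was not tested. The files hold ratios and no levels, so the labelled sex could not be checked against the level of a marker, and a lower ratio in whole flies cannot separate fewer cells of a type from less RNA per cell.

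The pilot array compared the same 2 conditions once, on other spots and with the dyes reversed. Its direction is not settled, since the dye, channel and treatment conventions disagree there, so values are printed with the sign in the file, some of them as distances from the median of that array, 0.40. Every sign would turn if the ratio ran the other way. CCT4 read 1.78 and 1.71 at its 2 spots, which is 1.34 above the array median and higher than 99.1% of named genes. CCT1 read 1.38 and 1.86, or 1.21 above the median. Of the 5 subunits 3 lay above the array median, as did 1174 (49.4%) of the named genes. A fold of 1.5 above the array median was passed by these 2 of 5 subunits and by 481 (20.2%) of the named genes on the pilot.

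The CCT4 and CCT1 pairs lay near each other in the order of the pilot values, with 2 spots between them that averaged 0.59. The local median of 50 spots on either side was 0.82 at the CCT4 pair and 0.80 at the CCT1 pair, above the array's median. After its subtraction CCT4 stood at 0.93 and CCT1 at 0.82. CCT2 read 0.080 and −0.46, or 0.59 below the array median, and was the only subunit past a fold of 1.5 on that side, where 355 (14.9%) of named genes lay. CCT8 read 0.23 and 0.42, which is 0.077 below the median.

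CCT5 was the only subunit with 2 printed pairs on the pilot, and they disagreed. The first pair read 0.78 and 1.21, and the second pair read 0.37 and −0.33, so that their means were 0.59 above and 0.38 below the array median. The gap of 0.98 between the pair means exceeded the gaps within them, of 0.43 and 0.71. The mean of all 4 spots was 0.10 above the array median.

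**Figure D4:**
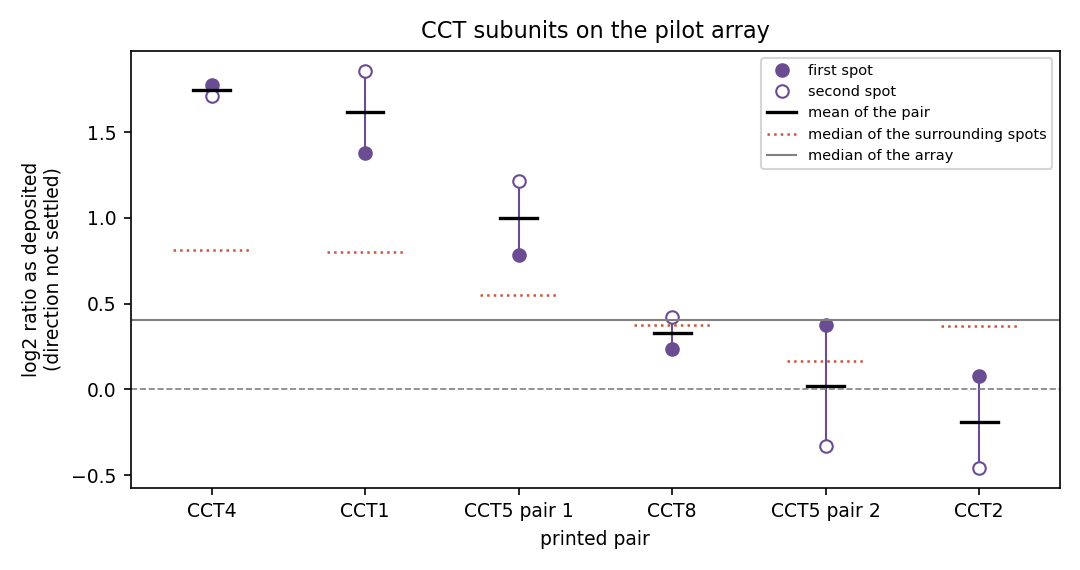
Log2 ratio as deposited of both spots of each CCT pair on the pilot array, with the mean of the pair (black bar), the median of 50 spots on either side (dotted) and the median of the array (grey line at 0.40). CCT4 and CCT1 lie 1.34 and 1.21 above the array median, and the pairs of CCT5 lie on opposite sides of it.

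For the 5 subunits on both designs the orders differed. From high to low the pilot gave CCT4, CCT1, CCT5, CCT8 and CCT2, and the 12k means gave CCT2, CCT5, CCT4, CCT8 and CCT1. CCT2 was the highest of the 5 on the 12k arrays, at 0.36, and the lowest on the pilot, at 0.59 below its median. CCT1 was the lowest of the 5 on the 12k arrays, at −0.42, and 1.21 above the median on the pilot. With the sign of the pilot turned, CCT2 would stand at 0.59, CCT1 at −1.21 and CCT4 at −1.34 relative to that median. The pilot has no replicate, and no test sets it against the 12k arrays.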

How the data were processed

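The authors deposited 1 log ratio of the channels for each spot (read here as log2), calculated from their normalized data, per the labels. How images were read, background was handled and data were normalized is not given in the sources used here. That the base is 2 is inferred, since values reach −14.57 while the natural log of a 16-bit range is 11.09. Spots were named through the platform annotation and RefSeq (Release 6) symbols, without coordinates. No sequences are printed, as none were supplied with the data used here.

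Spots of a gene were averaged within an array, and spots without a single symbol were kept as features of their own. The mean ratio over 3 arrays was tested against 0 by a two-sided moderated test (limma 3.58.1, functions lmFit and eBayes, under R 4.3.3). Benjamini-Hochberg adjustment covered 19325 features, and the code was tested on simulated data. Residual degrees of freedom were 2 and prior ones 4.99. The number of arrays limits the precision. Genes named outside CCT were all measured members of 4 lists, the 3 members with the largest mean change in 4 others, and the 5 genes most like the mean CCT profile. Outside this rule fs(1)N, swa and grk were also named, as the measured female markers with a mean above 0. The members and lists were chosen with earlier results of these data known. Other settings tried were array and local medians, spot summaries, tested features, a robust variance prior, single spots of a pair and the omission of each array.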

Additional observations from a re-analysis of the deposited data

How the results depend on the processing

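The count of features and of CCT subunits past limma's adjusted test was 0 under all alternatives run, and the smallest adjusted p of a CCT subunit was 0.763 in the 10 alternatives that gave its mean. CCT2 and CCT5 kept means above 0, and CCT3, CCT7 and CCT8 means below 0, in all 10 of these. Among them the median over spots could not differ from the main setting, since each subunit had 2 spots. Subtraction of array medians moved all means by the same amount. Single spots of a pair, local medians of 5 or 10 spots and all local medians on the pilot were chosen after seeing the data. The count of subunits below 0 on every array, 1, was 0 with second spots only, and 1 to 3 when a replicate was left out, which leaves 2 arrays to lie below 0. CCT4 turned to 0.092 with local medians of 5 spots and to 0.016 with second spots only. Without one replicate the mean ranged from −0.77 to 0.038 for CCT1, 0.24 to 0.51 for CCT2, −0.95 to −0.23 for CCT3, −0.22 to −0.015 for CCT4, 0.11 to 0.25 for CCT5, −0.42 to −0.056 for CCT7, −0.47 to −0.24 for CCT8, −0.37 to 0.083 for CG9920, −0.66 to 0.088 for Hsp60D, −0.26 to 0.041 for betaTub85D, −0.23 to 0.052 for Pfdn1, −0.19 to 0.13 for Tbca, −0.16 to 0.46 for Tbcb, −0.37 to 0.0020 for Act88F, −0.075 to 0.20 for Act79B, −0.052 to 0.49 for Pfdn5, −0.25 to 0.046 for Tbcd, −1.02 to 0.074 for Tbce, −0.016 to 0.39 for fzr and −0.21 to 0.30 for fzy. With local medians of 50 spots subtracted, signs turned for Pfdn4 at 0.21, Tbca at −0.021 and betaTub85D at 0.021. With 5 spots they turned for Pfdn4 at 0.37, Tbca at −0.010, Tbcd at 0.021, fzy at −0.11, Act79B at −0.024 and betaTub85D at 0.13. With 10 spots they turned for Pfdn1 at 0.011, Pfdn4 at 0.36, Act79B at −0.014 and betaTub85D at 0.053. First spots only turned Tbcd to 0.040, Act79B to −0.065 and alphaTub85E to −0.13, and second spots only turned Tbca to −0.085, fzr to −0.038 and fzy to −0.034. The cause was not tested. On the pilot, turning the sign gave −1.62 for CCT1, 0.19 for CCT2, −1.75 for CCT4, −0.51 for CCT5 and −0.33 for CCT8, and CCT8 stood at −0.077 with the array median and at −0.046 with local medians subtracted. The 924 features under an unadjusted p of 0.05 became 597 to 1208 without one replicate, and 615 and 662 with second or first spots only. They became 1135 with local medians of 50 spots and 1323 with every spot its own feature. With named genes only in the fit, 387 of 6793 were under that threshold, beside 237 of the same genes in the main fit. The number tested differs where spots or features do. The test against 0 is already paired, since every 12k array compares the members of a pair, so no replicate block could be added to it. Spot intensities were not used here, so signal over background is unknown for each reading.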
